A study of Mus musculus with 6 samples.

Results

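The miR-17-92 and miR-106b-25 clusters are a pair of related groups of microRNA (miRNA) genes, each transcribed as 1 unit that holds several hairpin precursors. Their 9 precursors, chosen by gene name at exactly matching GRCm38 positions in GENCODE M21, were all found among the 1823 features listed in these libraries, 912 of which match a miRNA gene. Reads of small non-coding RNAs had been counted in bone marrow cells of mice, named lineage-negative (Lin-, depleted of mature blood cells) in the series' design text. There were 3 libraries labelled Mat KO (here KO, a knockout read as maternally inherited, at the Dlk1-Gtl2 imprinted locus per the series title) and 3 labelled wildtype (WT). The sources used here do not give strain, age, sex, the deleted segment or whether each library is a separate animal, so p-values measure the spread between libraries, which may be technical. Gel selection took inserts of snoRNA size, longer than mature miRNAs. Every value below is a count of reads in the region of a precursor. Whether reads of mature length are among them was not tested.

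Both clusters are linked to proliferation as background knowledge. Mir17hg, the host of miR-17-92, is activated by MYC and E2F factors, and its miRNAs restrain the pro-apoptotic protein BIM. The cluster is needed for normal B cell development. Mcm7, the host of miR-106b-25, encodes a subunit of the replicative helicase, and its miRNAs share targets with miR-17-92, among them the cell cycle inhibitor p21. A miRNA finds its targets mainly through its seed, bases 2 to 8 of the mature strand. Another related cluster, miR-106a-363, lies on the X chromosome.

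The seeds tie the members together across both hosts, so the seed-bearing mature strand of each is shown, 5′ to 3′, with the seed in capitals (RefSeq, GRCm38.p6). Of the members, 4 carry the miR-17 seed, 1 the miR-18 seed, 2 the miR-19 seed and 2 the miR-25/92 seed.
miR-17-5p (Mir17): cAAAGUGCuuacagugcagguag
miR-20a-5p (Mir20a): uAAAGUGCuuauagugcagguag
miR-106b-5p (Mir106b): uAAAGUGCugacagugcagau
miR-93-5p (Mir93): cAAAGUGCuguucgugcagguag
miR-18a-5p (Mir18): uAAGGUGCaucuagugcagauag
miR-19a-3p (Mir19a): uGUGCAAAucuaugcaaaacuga
miR-19b-3p (Mir19b-1): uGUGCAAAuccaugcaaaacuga
miR-92a-3p (Mir92-1): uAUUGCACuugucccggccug
miR-25-3p (Mir25): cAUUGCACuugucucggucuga
The groups of the miR-17 and miR-25/92 seeds have members in both clusters, and those of miR-18 and miR-19 in miR-17-92 only.

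The 6 precursors of miR-17-92 lie within exon 2 of the only annotated transcript of Mir17hg, on the plus strand of chromosome 14. In order they are Mir17 (115043671 to 115043754), Mir18 (115043851 to 115043946), Mir19a (115044000 to 115044081), Mir20a (115044157 to 115044263), Mir19b-1 (115044305 to 115044391) and Mir92-1 (115044427 to 115044506). They span 836 nt, with gaps of 35 to 96 nt. The 3 precursors of miR-106b-25 lie on the minus strand of chromosome 5, in intron 13 of the longest Mcm7 transcript (138164583 to 138172422). In the direction of transcription they are Mir106b (138165737 to 138165818), Mir93 (138165523 to 138165610) and Mir25 (138165321 to 138165404), spanning 498 nt. A short Mcm7 transcript has Mir93 and Mir25 inside its exon 1. Hairpin GC content was 43.7% to 47.5% in miR-17-92 and 55.7% to 63.1% in miR-106b-25. No feature stood for either host transcript, so the members cannot be set against their hosts here.

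Libraries held 45398303 to 53299322 reads in all, mostly of abundant snoRNAs, and miRNA features took 0.871% to 1.13% of them. The 9 members together had 2549 to 5535 reads per library. Levels are in CPM, the read count scaled to a library total of 1000000, and where precursors are compared with each other, in RPKM, which is CPM per kilobase of the feature. Where counts are given library by library, the order is replicates 1, 2 and 3.

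Most members were moderately abundant precursors, and members of 1 cluster lay far apart. By mean RPKM of the 6 libraries, Mir92-1 ranked 23rd and Mir93 24th of 912 miRNA features, followed by Mir25 at 38, Mir20a at 42, Mir17 at 44, Mir19b-1 at 56 and Mir106b at 88. Mir19a and Mir18 were far lower, at 141 and 143. Per length, Mir92-1 was 25.1 to 56.1 times Mir18, and Mir93 was 8.42 to 11.6 times Mir106b, although the members of a cluster share a primary transcript.

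Within miR-17-92, Mir92-1, the last precursor of the transcript, had the highest level. Its KO counts were 1055, 1061 and 1026 reads, and its WT counts 687, 1075 and 1024. Only WT replicate 1 stood apart, below the other 5, which lay within 1024 and 1075 reads. Its mean level was 251 ± 47 RPKM (SD, n = 6), above Mir20a at 92.1 ± 35.8 RPKM in 6 of 6 libraries. Mir20a and Mir17 (84.5 ± 29.9 RPKM) differed by less than their spread, with Mir20a higher in 4 of 6 libraries, and so did Mir17 and Mir19b-1 (63.1 ± 24.1 RPKM), with Mir17 higher in 5 of 6. A gap followed, since Mir19b-1 was 5.20 to 13.8 times Mir19a in every library. Mir19a, at 8.08 ± 2.44 RPKM, and Mir18, at 7.59 ± 2.24 RPKM, could not be ordered and changed places between libraries.

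The low pair rests on few reads. Mir18, whose strand holds the miR-18 seed, had KO counts of 35, 45 and 49 reads and WT counts of 25, 23 and 39. For Mir19a, which shares its seed with Mir19b-1, the KO counts were 23, 51 and 32 and the WT counts 23, 30 and 38. Both precursors overlapped between the genotypes. Position along the transcript did not order the levels, since the precursors on either side of this adjacent pair, Mir17 and Mir20a, were among the higher ones.

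Within miR-106b-25 the order was the same in every library. Mir93, the middle precursor, had KO counts of 938, 1526 and 994 reads and WT counts of 810, 1150 and 963, or 245 ± 58 RPKM (SD, n = 6). Mir25, with the seed of miR-92a, had KO counts of 609, 831 and 666 and WT counts of 284, 689 and 461, or 143 ± 49 RPKM. WT replicate 1 was the lowest for both, and by a wider margin for Mir25, so that Mir93 was 2.72 times Mir25 per length there and 1.42 to 1.99 times in the other 5 libraries. Mir106b, the first precursor, had KO counts of 95, 164 and 110 and WT counts of 65, 104 and 83, or 25.6 ± 8.1 RPKM. Both steps of this order exceeded the SD of either neighbour.

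**Figure D1:**
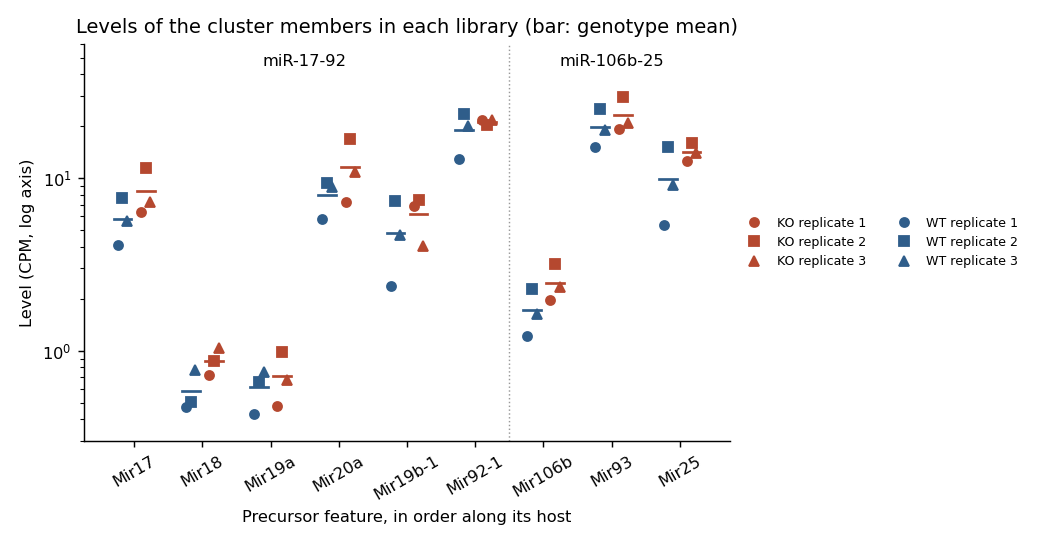
Level (CPM, log axis) of the 9 precursors in each of the 6 libraries, KO in red and WT in blue, with symbols for replicate numbers and a bar at each genotype's mean (n = 3). The precursors lie in bands from Mir93 and Mir92-1 near 20 CPM down to Mir18 and Mir19a below 1.1 CPM, and the genotypes overlap for each of the 9.

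Shares within a cluster do not depend on how libraries are scaled, and they showed libraries apart in both clusters. Mir92-1 held 47.5% to 49.98% of the miR-17-92 reads in 5 libraries but 35.2% in KO replicate 2 (95% exact binomial interval 33.5% to 36.9%, counting error only). Higher there were the shares of Mir20a, at 28.9% (27.3% to 30.6%) against 16.7% to 23.9% in the others, and of Mir17, at 19.8% (18.4% to 21.3%) against 13.9% to 15.9%. The lowest Mir20a share, 16.7% (15.2% to 18.4%), was that of KO replicate 1. Mir19b-1 varied within both genotypes, with 15.9% (14.4% to 17.5%) in KO replicate 1 and 14.96% (13.5% to 16.5%) in WT replicate 2, but 8.89% (7.73% to 10.2%) in KO replicate 3 and 9.14% (7.67% to 10.8%) in WT replicate 1. Its counts may include reads that also match X-linked Mir19b-2 (below), which these intervals do not cover. In miR-106b-25, Mir25 held 24.5% (22.1% to 27.1%) of the reads of WT replicate 1 and 30.6% to 37.6% elsewhere. By genotype, Mir92-1 held 44.2 ± 7.9% (KO) and 48.9 ± 0.8% (WT), and Mir93 57.9 ± 2.3% and 64.3 ± 5.4% of its cluster (SD, n = 3 each). The genotypes overlapped in the shares of 8 of the 9 members. The exception was Mir106b, with KO shares of 5.79%, 6.51% and 6.21% and WT shares of 5.61%, 5.35% and 5.51%. That is 1 of the 9 shares, or 11.1%. In CPM, a different measure, 15.2% of all tested features were free of overlap in either direction. The counting interval of KO replicate 1, 4.71% to 7.03%, covers all of these values.

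**Figure D2:**
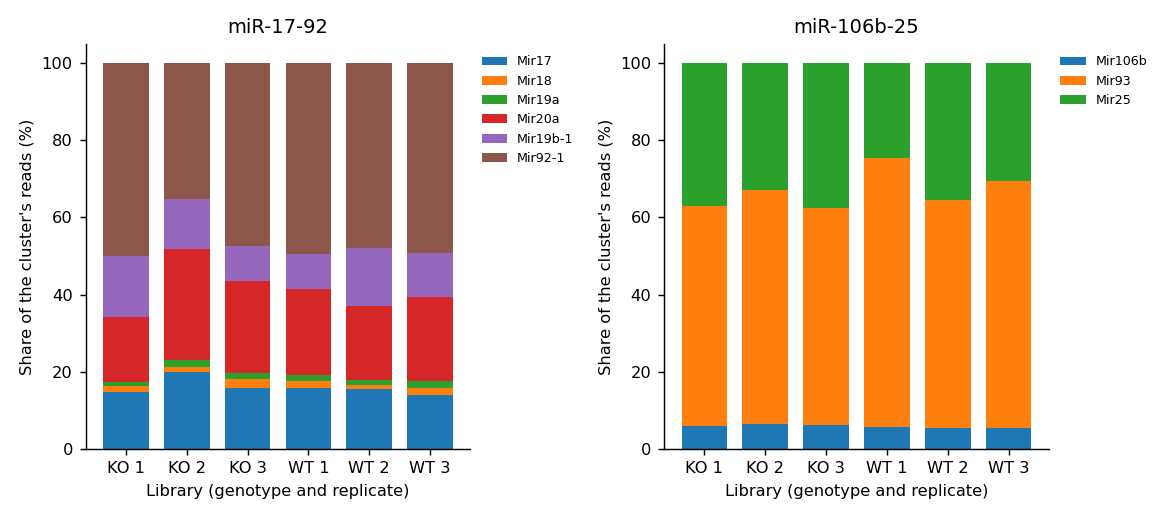
Share of each member in the reads of its cluster (stacked bars, percent) in the 6 libraries, miR-17-92 on the left and miR-106b-25 on the right. KO 2 has the smallest Mir92-1 segment (35.2%) and WT 1 the smallest Mir25 segment (24.5%).

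The clusters, on different chromosomes, kept a nearly fixed proportion to each other. The sum of miR-17-92 was 43.5, 58.1 and 45.6 CPM for KO and 26.1, 49.3 and 40.9 CPM for WT. The sum of miR-106b-25 was 33.9, 48.6 and 37.4 CPM and 21.7, 42.8 and 29.7 CPM in the same libraries. KO replicate 2 was the highest and WT replicate 1 the lowest for both. The ratio of the first to the second stayed between 1.15 and 1.38, a narrower range than that of either sum.

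Comparing the genotypes asks whether these proliferation-linked precursors differ when the maternal copy of the Dlk1-Gtl2 locus is mutated, and none of the 9 was called. All 9 passed the expression filter, and edgeR's quasi-likelihood test on all 624 features that passed it gave adjusted p of 0.710 to 0.824 for the members (Benjamini-Hochberg). Over all features 0.160% were called, which is 1 feature. With these settings none of the 9 had an unadjusted p under 0.05 by edgeR, where 6.41% of all features did (2.08% with a higher KO level). DESeq2, run without that filter, called none either (adjusted p = 0.981 for each, where it called 0.110% of 1816 features). Its unadjusted p was under 0.05 for Mir18 (0.047) and Mir106b (0.049), where 2.97% of those 1816 features had one. That base is unlike the 624 features that passed the filter. For no member were all KO libraries above all WT libraries, which held for 2.72% of the tested features (15.2% were free of overlap in either direction). With no filter edgeR called 0.713% of all features and again no member.

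All 9 estimates were nonetheless above 0 on the log2 scale, KO over WT, as were 40.9% of all tested and 65.4% of tested miRNA features. Their median was 0.59, beside -0.08 for all tested features and 0.21 for the 205 tested miRNA features. Mir18 had 0.65 (SE 0.31) and Mir20a 0.60 (SE 0.37), and Mir17 had 0.60 (SE 0.36). Mir106b and Mir25 were alike in size, at 0.60 (SE 0.35) and 0.59 (SE 0.40). Smaller estimates belonged to Mir19b-1 at 0.43 (SE 0.47), Mir93 at 0.30 (SE 0.29), Mir19a at 0.28 (SE 0.38) and Mir92-1 at 0.24 (SE 0.28). The most abundant member of each cluster thus had its cluster's smallest estimate, and the estimate furthest from 0 in units of its SE was that of Mir18, at 2.09. Each of the estimates comes from the same 6 libraries, so their shared direction does not add up to 9 observations.

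**Figure D3:**
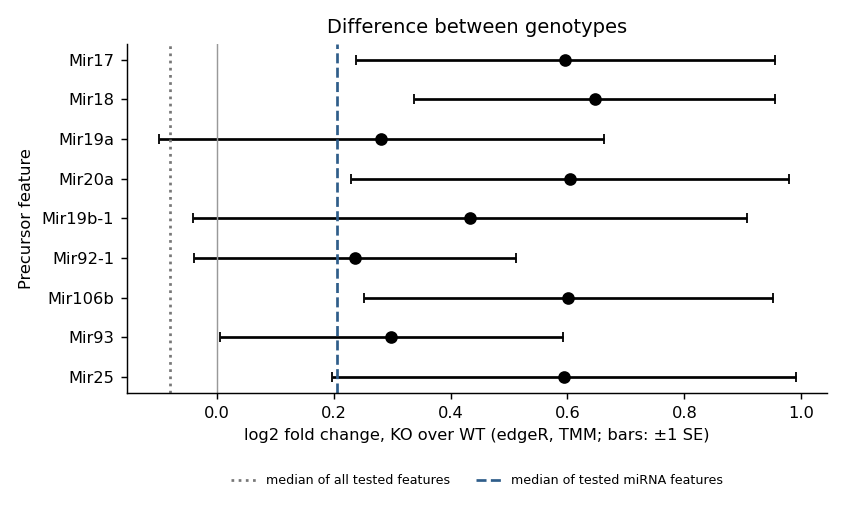
Log2 fold change of each member, KO over WT, with 1 SE to each side (edgeR, TMM scaling, 3 libraries a genotype), beside the medians of all 624 tested features (dotted) and of 205 tested miRNA features (dashed). All 9 points are above 0, from 0.24 to 0.65, and none was called.

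In levels, the distance between the group means varied against the SD within a genotype. Mir17 had 8.38 ± 2.75 CPM (KO) and 5.82 ± 1.80 CPM (WT), and Mir20a 11.7 ± 4.8 and 8.03 ± 1.94 CPM. Mir25 had 14.2 ± 1.7 and 9.86 ± 4.97 CPM, Mir93 23.3 ± 5.4 and 19.8 ± 5.1 CPM, and Mir92-1 21.3 ± 0.7 and 18.9 ± 5.5 CPM (SD, n = 3 each). The distance exceeded both SDs for Mir18, at 0.875 ± 0.157 and 0.581 ± 0.163 CPM. The same held for Mir106b, at 2.483 ± 0.617 and 1.715 ± 0.540 CPM. The distance exceeded neither SD for Mir93, Mir19b-1 and Mir19a, the last at 0.712 ± 0.256 and 0.614 ± 0.164 CPM. The summed level was 49.1 ± 7.9 and 38.8 ± 11.8 CPM for miR-17-92, and 39.98 ± 7.70 and 31.4 ± 10.6 CPM for miR-106b-25. These are ratios of 1.27 for both clusters, or 0.34 and 0.35 on the log2 scale. Single libraries moved these log2 ratios by over 1.5 times: they were 0.20 and 0.18 without KO replicate 2, 0.12 and 0.14 without WT replicate 1, and 0.55 and 0.64 without WT replicate 2. Scaled by RLE they were 0.52 and 0.53. A difference in the number of cells with a precursor and one in its level per cell cannot be told apart in such bulk libraries.

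A pair of libraries lay at the ends for most members. Relative to its mean over libraries, each of the 9 members was lowest in WT replicate 1, and 7 were highest in KO replicate 2. Among the 196 other tested miRNA features, 49.0% were lowest in WT replicate 1 and 49.5% highest in KO replicate 2, against 20.5% and 24.8% of all tested features. The median tested miRNA feature stood at -0.49 in WT replicate 1 and 0.56 in KO replicate 2 on the log2 scale, while the median over all tested features stayed between -0.08 and 0.06. Mir25 and Mir19b-1 went furthest below this, to -1.12 and -1.13 in WT replicate 1. Leaving out KO replicate 2 gave a median log2 fold change of 0.32 over the 9 members, and leaving out WT replicate 1 gave 0.39, with no member called in either.

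**Figure D4:**
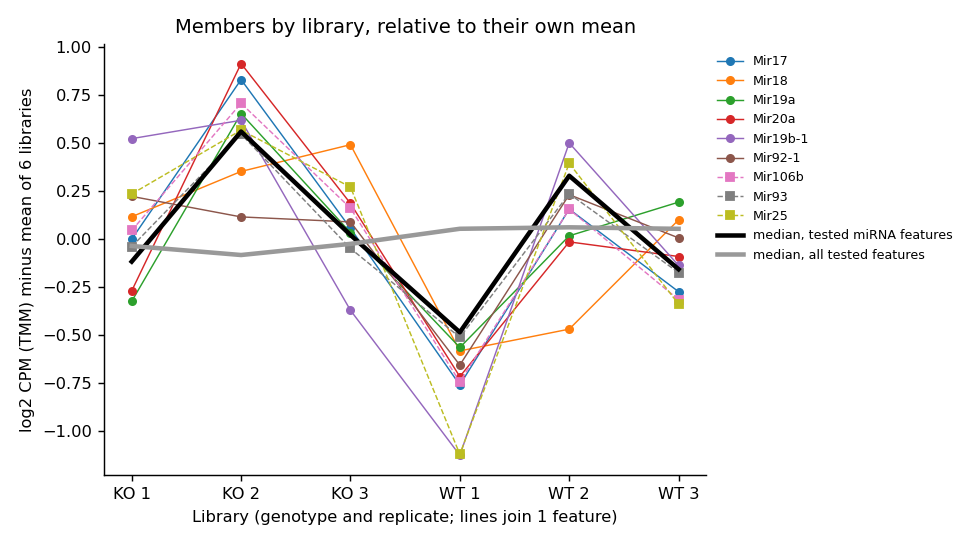
Log2 CPM (TMM) of each member minus its mean over 6 libraries, by library (lines join the values of 1 feature), with the median of the tested miRNA features in black and of all tested features in grey. All 9 members are lowest in WT 1, where the black line is at -0.49. In KO 2, where the black line is at 0.56, 7 members are highest. Mir92-1 does not rise there, at 0.11 in KO 2 and 0.22 in KO 1. The grey line stays near 0.

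Measured against miRNA precursors alone, the summed levels of the clusters differed less. The miRNA class of the annotation also holds Snord43, which took 43.4% to 60.7% of its reads. Over the 479 features with a symbol starting with Mir, a scale chosen after the data were seen, miR-17-92 had 17011 ± 2804 (KO) and 16103 ± 2969 (WT) reads when their total is scaled to 1000000. The values for miR-106b-25 were 13749 ± 1748 and 12883 ± 1288 (SD, n = 3 each). The log2 ratios were 0.08 and 0.09, each inside the spread, and 0.24 and 0.25 when scaled to all reads of the miRNA class. These are ratios of sums, in which abundant members weigh most. With edgeR on the miRNA class alone, the 9 single estimates stayed above 0. Their median was 0.39, beside 0.03 for all features tested there, and no member was called. The members made up 2.46% to 3.60% of the reads of the 479 features, with WT replicate 2 lowest and KO replicate 1 highest. Of all reads of the miRNA class they made up 0.549% to 0.946%, with WT replicate 1 lowest and KO replicate 2 highest.

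Some marker lists of other cells had the same libraries at their ends, and others did not. Muscle precursors (4 of 4 listed: Mir1a-1, Mir1a-2, Mir133a-1, Mir133a-2) summed to 14.5 CPM in KO replicate 2 and to 0.062 to 0.254 CPM in the other KO and 0.094 to 0.352 CPM in the WT libraries. Mir133a-1 and Mir133a-2 were at 0 or 1 read outside KO replicate 2. Stromal precursors (5 of 5 listed) summed to 2.02 to 6.02 CPM in the KO and 1.05 to 3.37 CPM in the WT libraries, again highest in KO replicate 2 and lowest in WT replicate 1. Erythroid precursors (3 of 4 names listed) gave 3.23 to 8.49 and 1.61 to 4.02 CPM, with the same libraries at the ends. Myeloid precursors (2 of 3 names) gave 15.5 to 23.2 and 9.68 to 21.1 CPM, again with KO replicate 2 highest and WT replicate 1 lowest. Mir150 of B cells had 4.002 to 6.09 and 0.694 to 3.19 CPM, with no overlap between genotypes and KO replicate 3 highest. Of all tested features, 2.72% had every KO library above every WT library, and 15.2% had no overlap in either direction. Of the primitive haematopoietic precursors, which check the Lin- label, 8 of 8 were listed and 5 passed the filter. They summed to 62.3 to 82.3 and 41.7 to 96.1 CPM, mostly from Mir10a. Mir130a had at most 1 read per library, and Mir126a ran from 29 reads in WT replicate 1 to 821 in KO replicate 3. Mir155, the only feature found for the T cell list (1 of 2 names), had 0.190 to 0.433 and 0.150 to 0.485 CPM. The primitive sum and Mir155 were both highest in WT replicate 2 and lowest in WT replicate 1. Mir122 of liver had 20 reads in WT replicate 1, 23 in WT replicate 2, 1 in KO replicate 2 and 0 in the other 3 libraries, and 1 of 3 neuronal names had a single read. No tested marker was called by edgeR, and the part of these cells in the members' differences was not tested.

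The X-linked paralogues were mostly rare. All 6 precursors of miR-106a-363 were listed, 5 passed the filter, and none was called (adjusted p 0.710 to 0.759 for Mir363, Mir18b, Mir19b-2 and Mir92-2, and 0.824 for Mir20b, by edgeR). All 5 estimates were above 0, with a median of 0.59. Mir363, which carries the miR-25/92 seed, had KO counts of 16, 39 and 64 reads and WT counts of 7, 19 and 9. Its estimate was 1.79 (SE 0.62), with overlapping genotypes, since KO replicate 1 had 0.330 and WT replicate 2 0.419 CPM. Mir106a had 4 to 11 reads per library and was not tested. Of the other precursors with the miR-25/92 seed, Mir32 had 2 to 6 reads per library, and Mir367 was not listed. Mir92b also carries this seed and was listed, and it enters only the summed seed group below.

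The members supplied nearly all reads of both large seed groups, but not of the miR-18 and miR-19 groups. They made up 98.3% to 98.8% of the reads of precursors with the miR-17 seed and 92.5% to 97.3% of those with the miR-25/92 seed, but 61.6% to 79.5% for miR-18 and 47.1% to 56.6% for miR-19. The summed miR-17 seed group had 46.4 ± 13.7 CPM (KO) and 35.9 ± 9.3 CPM (WT), and the miR-25/92 group 37.6 ± 2.0 and 29.97 ± 10.83 CPM (SD, n = 3 each).

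In the miR-19 group this came from Mir19b-2, whose counts followed those of Mir19b-1 on another chromosome. Mir19b-1 had KO counts of 336, 389 and 192 reads and WT counts of 127, 335 and 239. For Mir19b-2 the KO counts were 403, 418 and 202 and the WT counts 115, 355 and 228. Their ratio stayed within 0.834 and 1.10, while that of Mir19b-1 to Mir20a, its neighbour on the same transcript, ran from 0.371 to 0.952. The hairpins are shown with their longest shared stretch, 25 nt, in capitals. It contains the whole of miR-19b-3p, and shorter stretches are shared outside it.
Mir19b-1 hairpin: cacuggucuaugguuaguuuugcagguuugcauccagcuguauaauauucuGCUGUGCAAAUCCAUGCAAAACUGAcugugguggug
Mir19b-2 hairpin: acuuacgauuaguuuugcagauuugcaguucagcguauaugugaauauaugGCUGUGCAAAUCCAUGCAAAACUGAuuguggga
The sources used here do not say how reads matching both places were assigned, so the counts of both are uncertain, and the place of Mir19b-1 in the order of its cluster with them.

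Mir92-1 and Mir92-2 did not share this pattern although they also encode an identical mature strand. Their longest shared stretch is 22 nt, with miR-92a-3p inside it.
Mir92-1 hairpin: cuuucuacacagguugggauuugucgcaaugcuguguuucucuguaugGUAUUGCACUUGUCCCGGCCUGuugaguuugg
Mir92-2 hairpin: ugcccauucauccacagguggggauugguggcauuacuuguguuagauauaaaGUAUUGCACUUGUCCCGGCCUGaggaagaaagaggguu
Mir92-2 had KO counts of 29, 84 and 64 reads and WT counts of 28, 54 and 45. Mir92-1 had 12.6 to 36.4 times as many, and the ratio was lowest in KO replicate 2, where the share of Mir92-1 in its cluster was also lowest. No pair among the 9 members shares an unbroken stretch of more than 13 nt.

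**Figure D5:**
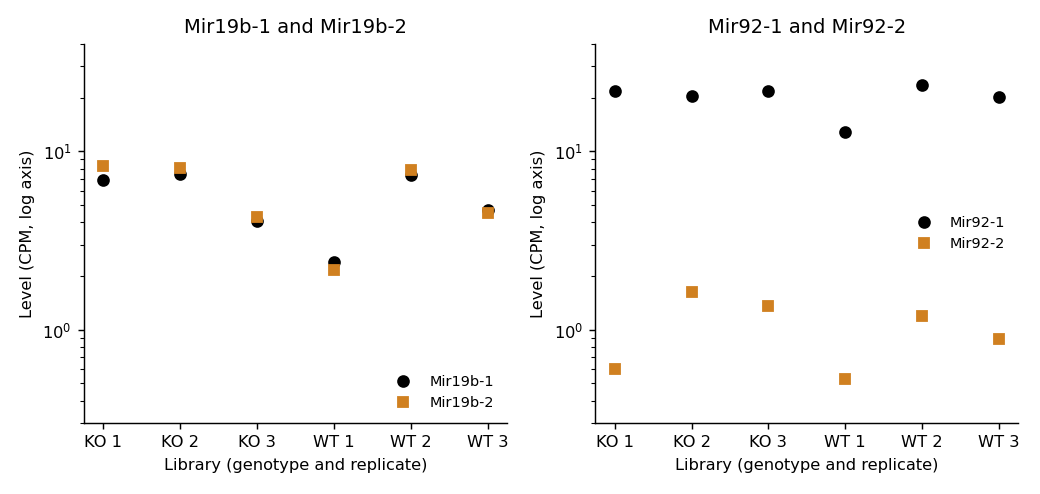
Level (CPM, log axis) in each library of the precursors that encode miR-19b-3p (left) and miR-92a-3p (right), 1 from miR-17-92 (black) and 1 from the X-linked cluster (orange). The points nearly coincide for Mir19b-1 and Mir19b-2 (read ratio 0.834 to 1.10) and lie far apart for Mir92-1 and Mir92-2 (12.6 to 36.4).

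Likeness across the libraries was measured as the root mean square difference of log2 CPM, centred on the mean of the 6 libraries. Nearest to miR-17-92 were Mir30a (0.131), Mir142b (0.150) and Mir20b (0.155), where the median tested miRNA feature had 0.429 and the median tested feature 0.540. Those nearest to miR-106b-25 were Mir101b (0.0897), Mir30a (0.105) and Mir101a (0.116), beside medians of 0.419 and 0.548. All 5 of these are miRNA precursors. Mir142b lies antisense over Mir142, and since no strand setting for the counting is stated, reads of the pair cannot be told apart. Mir30a, on chromosome 1, had KO counts of 702, 1219 and 691 and WT counts of 483, 897 and 700, with the same libraries at the top and the bottom. By the same measure the clusters lay 0.0848 from each other, a distance between sums of several precursors, so that single precursors on other chromosomes, Mir101b and Mir30a, followed miR-106b-25 nearly as closely. This is a description of 6 libraries that share their overall miRNA level, with no test.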

How the data were processed

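Small RNA libraries of 3 KO and 3 WT samples were used, grouped by title. Per the labels' protocols, RNA was extracted with Trizol and prepared with a small RNA kit. Reads were processed with Bowtie2 2.3.4.1 and Trimmomatic 0.38 and the build was GRCm38, per the submitters' processing notes. The sources used here do not name the counting tool, its strand setting or its handling of reads with several matches. The authors deposited raw counts of reads per feature, listing features of at least 1 read, and missing features were set to 0. Features were matched to GENCODE M21 by position (1822 of 1823), and sequences to RefSeq (GRCm38.p6) by symbol, with the hairpins of all 9 members and 6 paralogues at the same positions.

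Counts were tested with edgeR 4.0.16 in R 4.3.3 (quasi-likelihood, TMM, default filter with minimum count 10 and minimum total 15, two-sided, Benjamini-Hochberg over 624 features, threshold 0.05). An approximate SE was obtained as the log2 fold change over the root of F. The script was tested on simulated data. Alternatives were RLE or total scaling, DESeq2 1.42.0, other filters (none, or 50 counts in 3 libraries), miRNA features alone, a replicate block and leaving out each library. Log2 CPM for likeness used a prior count of 2. Members and lists were chosen with earlier results of these data known. Named features were the 9 members, the X-linked cluster, Mir32, Mir367 and the 3 features most like each cluster. Replicates differed beyond sampling noise (chi-square per degree of freedom 530 to 3308). Intervals reflect counting error alone, as PCR duplicates could not be told from separate molecules.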

Additional observations from a re-analysis of the deposited data

How the results depend on the processing

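No member was called under any of the 13 alternatives, and all 115 member estimates stayed above 0, with adjusted p of 0.242 to 0.992. At an unadjusted p under 0.05 there was 1 member with RLE, with miRNA features only, without KO replicate 1 and without WT replicate 3, and 2 with DESeq2 and without WT replicate 2. Mir18 and Mir19a fell below the filter of 50 counts in 3 libraries. Calls over all features numbered 1 with the main settings, 2 with DESeq2, 13 with no filter, 0 with miRNA features only, 0 with the replicate block and 0 to 1 with any library left out. The call was lost without KO replicate 3, WT replicate 1, WT replicate 2 or WT replicate 3. The cause was not tested. With TMM, RLE and library totals, the median log2 fold change was -0.08, 0.02 and -0.16 over all features and 0.59, 0.70 and 0.53 over the members. With any library left out it was 0.32 to 0.81 for the members. With miRNA features only it was 0.39 for the members and 0.03 for all features. The summed log2 ratio stayed above 0 in each scaling (0.08 to 0.52 for miR-17-92 and 0.09 to 0.53 for miR-106b-25) and with each library left out (0.12 to 0.55 and 0.14 to 0.64), moves that are within the spread between libraries. Dividing by length changed which of Mir20a and Mir17 was higher in 2 libraries (KO replicate 1 and WT replicate 2) and which of Mir18 and Mir19a was higher in 2 (WT replicates 1 and 3), where the mean order of that pair also turned.

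Same-numbered KO and WT libraries deviated together for replicate 2 only (correlations -0.13, 0.40 and -0.36 for replicates 1, 2 and 3). The highest correlation, 0.59, was that of KO replicate 1 with WT replicate 3, so the numbers were not taken as pairs. With the replicate block the members' lowest adjusted p was 0.539.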
